A study of Mus musculus with 30 samples.

Results

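The 10 genes described here encode the machinery that refills and clears calcium in mouse bone marrow-derived dendritic cells (BMDCs): the endoplasmic reticulum (ER) calcium sensors Stim1 and Stim2, the plasma membrane calcium channels Orai1, Orai2 and Orai3, the ER calcium pumps Atp2a2 and Atp2a3, the plasma membrane calcium pump Atp2b1, and the cation channels Trpm2 and Trpm4. They were chosen by symbol, through the Ensembl identifier of their row, and all 10 were found among the 43629 genes of the count table. mRNA of 30 libraries had been sequenced, from 10 cultures, 5 of WT and 5 of Cacnb3-/- mice, with 3 libraries per culture, which form the sets ctrl, 0p5h and 24h by the ending of their names. The protocol in the labels describes 6 days of culture and then a pulse of 500 µM ATP for 30 min, with harvest directly or after 24 h.

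The 6 groups of 5 libraries were WT ctrl, WT 0p5h, WT 24h, Cacnb3-/- ctrl, Cacnb3-/- 0p5h and Cacnb3-/- 24h. The treatment field gives 30min_ATP for the ctrl set, vehicle for the 0p5h set and 24h_ATP for the 24h set, so that names and treatment contradict each other in ctrl and 0p5h. Which of the ctrl and 0p5h sets was the unstimulated one therefore cannot be told from the labels, and a change from ctrl to 0p5h is given below by library name only. According to the methods, WT mice were C57BL/6J and Cacnb3-/- mice C57BL/6N, adult and of both sexes, so that substrain and genotype cannot be told apart. The sources used here do not say whether a culture number marks a separate animal, and p-values then measure only the spread between these cultures. In bulk libraries, fewer cells with a transcript and less of it per cell cannot be told apart.

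Store-operated calcium entry begins when the ER store is emptied, for example through the IP3 receptor. Stim proteins in the ER membrane lose calcium from their luminal side, gather below the plasma membrane and open Orai channels, and the SERCA pumps encoded by Atp2a2 and Atp2a3 then move calcium back into the store while the PMCA pump encoded by Atp2b1 exports it from the cell. Trpm2 forms a channel opened by ADP-ribose and calcium, and Trpm4 forms a channel that is opened by calcium but conducts monovalent cations and so depolarizes the membrane. Cacnb3 encodes a beta subunit of voltage-gated calcium channels.

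Libraries held between 8237393 and 32164225 counts with a median of 19556920, the lowest being Cacnb3-/- 24h of culture p974s843. Mitochondrial genes took 0.706% to 5.61% of counts in WT and 2.16% to 16.5% in Cacnb3-/- libraries, the highest again in p974s843 24h. Cacnb3 itself was counted at 1034 to 2142 CPM (counts scaled to library size, here TMM-scaled) in the 15 WT libraries and at 572 to 1330 CPM in the 15 Cacnb3-/- libraries. The table counts reads over the whole gene and the deleted part is not given in the sources used here, so these counts do not check the genotype labels. All 8 dendritic cell markers exceeded a mean of 1 CPM in every group, with Cd74 at 5996 to 18991 and Ccr7 at 1666 to 6462 CPM per library. The 7 macrophage markers were also present, whereas none of the 5 lymphocyte markers reached a mean of 1 CPM in any group.

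In build GRCm38, as the table gives it, the genes lie at chr7:102267824-102436848 (Stim1), chr5:53998417-54121057 (Stim2), chr5:123015074-123030450 (Orai1), chr5:136147464-136170656 (Orai2) and chr7:127769815-127775150 (Orai3). The pump genes lie at chr5:122442702-122502225 (Atp2a2), chr11:72961169-72993044 (Atp2a3) and chr10:98915152-99026143 (Atp2b1), and the channel genes at chr10:77907722-77970563 (Trpm2) and chr7:45303155-45333780 (Trpm4). Counts cover all exons of a gene, UTRs included. Exons shared with another gene made up 0.306% of Orai1, 0.208% of Atp2a2 and 0.738% of Trpm2.

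All 10 genes were counted in every library, each with at least 32 counts in every library. Compared per length, as RPKM (CPM per kilobase of the exon length in the table), Orai3 was the most abundant of the 10, with a median of 25.8 over 30 libraries and a range of 21.6 to 34.9, and it exceeded the next gene, Orai1, in 30 of 30 libraries. Orai1 had a median of 15.9 RPKM and was above Atp2b1, at 14.4, in 20 of 30 libraries, so that the order of these neighbours was not fixed. Atp2b1 exceeded Atp2a2, whose median was 11.2 RPKM, in 26 of 30 libraries. Atp2a2 was in turn above Orai2, at 8.12 RPKM, in 28 of 30.

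By median RPKM, Orai2, Stim2, Atp2a3 and Stim1 lay close together, with medians of 8.12, 7.18, 5.36 and 6.31 RPKM, and no neighbours among them kept 1 order: Orai2 exceeded Stim2 in 18, Stim2 exceeded Atp2a3 in 21 and Atp2a3 exceeded Stim1 in 12 of 30 libraries. Trpm4, at 3.4 RPKM, was below Stim1 and above Trpm2 in all 30 libraries. Trpm2 was the least abundant at 0.601 RPKM, within a range of 0.328 to 1.93. Its exon length of 12323 bases in the table is a union over transcripts, which lowers its level per length. Among the 11921 genes with a mean of at least 1 CPM, Orai3 stood at the 82.4th percentile by mean RPKM and Trpm2 at the 9.5th.

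**Figure D1:**
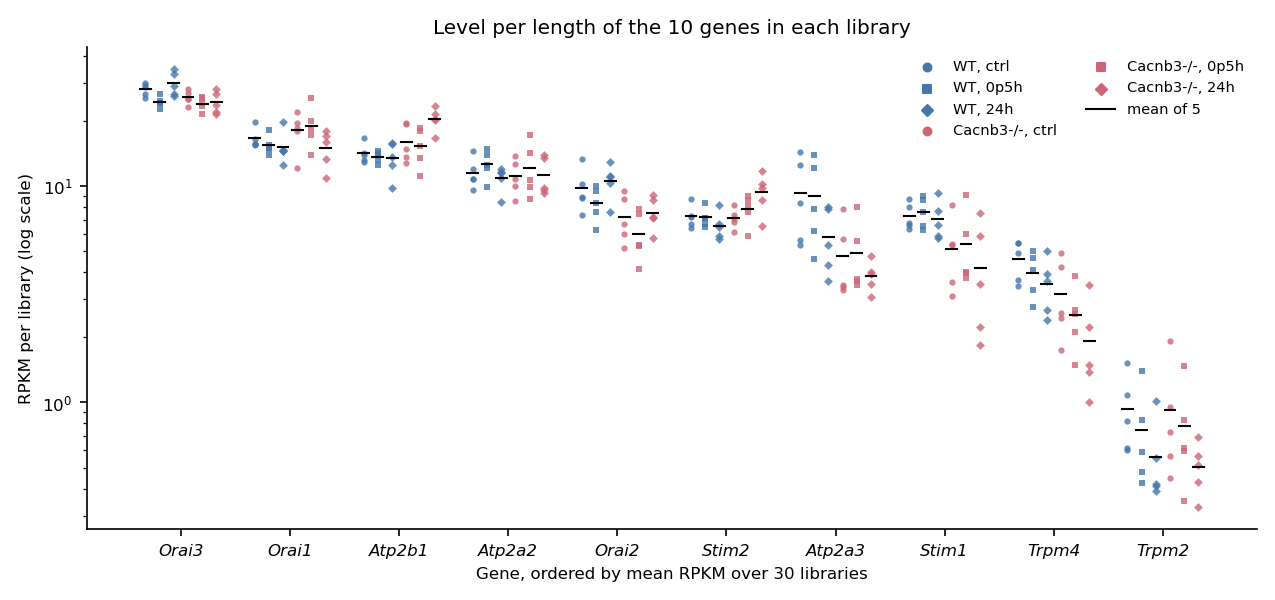
RPKM of each gene (log axis) in each of 30 libraries, with symbols for the 6 groups and a black line at the mean of 5 libraries. Orai3, between 21.6 and 34.9, lies above Orai1 in each library, and Trpm2 lies lowest, between 0.328 and 1.93.

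Within families, the share of each gene in the summed RPKM was computed per library. Orai3 took 51.3% ± 2.82 (SD, n = 30) of the Orai sum, Orai1 32.6% ± 4.94 and Orai2 16.1% ± 3.48. The Orai3 share had a narrow range of group means, from 49.2% in Cacnb3-/- 0p5h to 53.7% in WT 24h. Stim1 and Stim2 had near-equal shares in WT, with Stim1 at 50.1% ± 3.12 in ctrl, 51.3% ± 2.2 in 0p5h and 51.5% ± 5.68 in 24h (SD, n = 5). The Stim1 share of Cacnb3-/- BMDCs was 40.8% ± 9.64, 39.7% ± 9.26 and 30.4% ± 16.5 in the same sets. The last group spanned 13.5% to 53.5% and so overlapped all WT groups. Atp2a2, the SERCA pump found in nearly all cells, took 56.7% ± 13.3 of the SERCA sum in WT ctrl and 74.3% ± 2.46 in Cacnb3-/- 24h, and the rest fell to Atp2a3, the isoform typical of blood cells. These shares are given as a description and were not tested. GC content was 55.1% for Stim1 and 47.4% for Stim2, and 57.3% for Atp2a3 and 50.2% for Atp2a2. Libraries also differed in the trend of level with GC content, given below, and the shares were not corrected for it.

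**Figure D2:**
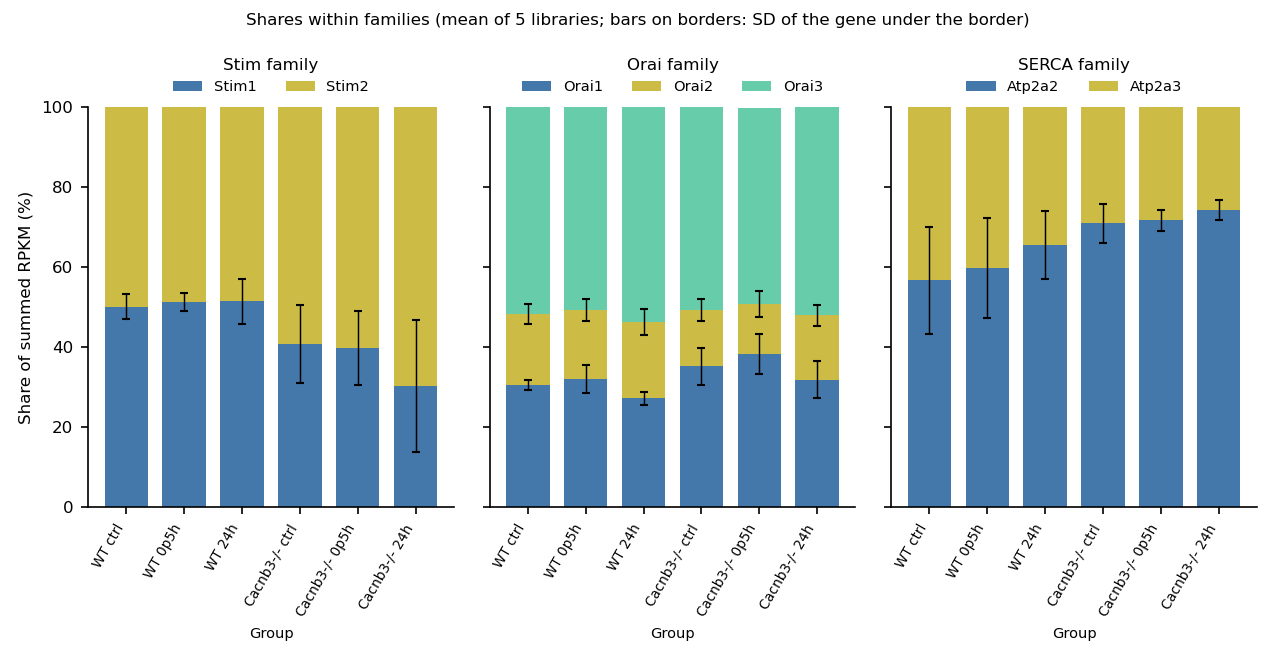
Mean share of each gene (%) in the summed RPKM of the Stim, Orai and SERCA families in the 6 groups of 5 libraries; error bars on a border show the SD of the share of the gene directly below that border. Orai3 keeps about the same share, near 51.3%, while the Stim1 and Atp2a3 shares are lower in the Cacnb3-/- groups, with overlap between libraries. Shares are not corrected for the trend of level with GC content.

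The comparisons as designed used edgeR's quasi-likelihood test with Benjamini-Hochberg adjustment over all genes tested. In them, 0 of the 10 genes passed an adjusted p of 0.05 in any of 13 comparisons. None of the 10 thus reached a 2-fold change together with that threshold in these 13 comparisons. Few genes of any kind passed. From ctrl to 0p5h, 0.29% of 13085 genes passed in WT and 0.384% of 12750 in Cacnb3-/- BMDCs; from ctrl to 24h, 0.0152% and 0%; and from 0p5h to 24h, 1.19% and 0.88%. Between genotypes 0% passed in each of the 3 sets and for the 3 libraries of each culture summed, and 0% passed for each of the 3 interactions. At an unadjusted p under 0.05, 1, 3, 5 and 5 of the 10 genes passed between genotypes in ctrl, 0p5h, 24h and the sums, where 16.6%, 16.4%, 38.4% and 23.3% of all genes did. Between sets, 1, 1 and 1 passed in WT and 0, 3 and 1 in Cacnb3-/- BMDCs, in the order ctrl to 0p5h, ctrl to 24h and 0p5h to 24h, against 4.54%, 8.39% and 11.2% of all genes in WT and 3.99%, 10.8% and 17.5% in Cacnb3-/- BMDCs. DESeq2 without a block called 0 of the 10 in these comparisons of sets.

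Cultures differed strongly from each other in these genes. Atp2a3, for example, ranged from 28.3 to 76.2 CPM among the 5 WT ctrl libraries, while the ctrl and 0p5h libraries of one culture lay closer, at 76.2 and 73.9 CPM in p974s855 and at 28.3 and 24.4 CPM in p974s864. With the culture number as a block, 5.96% of genes passed from ctrl to 0p5h in WT and 2.35% in Cacnb3-/- BMDCs, 6.05% passed from ctrl to 24h in WT, and 11.3% and 28.6% passed from 0p5h to 24h in WT and Cacnb3-/- BMDCs. The block was an alternative to the comparisons as designed, in which 0 of the 10 genes passed. Because same-numbered libraries deviated together, blocked values are given below, for the comparisons in which every same-numbered pair correlated. A fit of all 10 cultures together, with the same block, was added after the data had been seen. In it 14.3% of 13465 genes passed from ctrl to 0p5h and 25.3% of 13424 from 0p5h to 24h. With genotype in place of the block, 1.68% and 4.42% passed, and 0 of the 10 genes were among them. The genes called in the blocked fits of 10 cultures, namely Orai2, Orai3 and Trpm2 in the first step and Orai2, Atp2a3 and Trpm2 in the second, were called with any 1 culture left out.

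Orai2 kept to 1 direction throughout the 10 cultures in each of the steps: it was lower in 0p5h than in ctrl in every culture and higher again in 24h in every culture. In WT ctrl, its 5 libraries held 28.4, 51.7, 34.4, 39.7 and 34.1 CPM for cultures p974s846, p974s850, p974s855, p974s856 and p974s864. In 0p5h the same cultures held 24.1, 38.5, 29.3, 36.7 and 32.3 CPM, and in 24h 29.2, 42.8, 40, 50 and 42.3 CPM. The groups overlapped, since the highest culture in 0p5h exceeded 3 of the ctrl libraries, yet each culture fell and rose. In Cacnb3-/- BMDCs, cultures p974s843, p974s851, p974s852, p974s853 and p974s865 held 25.6, 33.5, 23.1, 19.9 and 36.8 CPM in ctrl. They held 20.3, 28.5, 20.5, 15.9 and 30.1 CPM in 0p5h and 27.8, 33.1, 27.4, 22.2 and 34.9 CPM in 24h.

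From ctrl to 0p5h, Orai2 fell by 0.24 on the log2 scale (SE 0.04, 0.846-fold, adjusted p = 0.00114, blocked edgeR fit of 10 cultures), lower in 10 of 10 cultures. From 0p5h to 24h it rose by 0.36 (SE 0.06, 1.28-fold, adjusted p = 0.000435), higher in 10 of 10. A fall in 10 of 10 cultures was shared by 3.28% of genes tested and a rise in 10 of 10 by 4.19%. Within WT alone the rise from 0p5h to 24h passed (log2 change 0.35, SE 0.07, adjusted p = 0.0165) and within Cacnb3-/- alone as well (0.36, SE 0.10, adjusted p = 0.0179). With the GC trend of each library also removed, the Cacnb3-/- rise was 0.57 (SE 0.10, adjusted p = 0.00343). The rise in WT was lost without p974s846, p974s855 or p974s864. The fall did not pass within either genotype, at adjusted p = 0.0581 in WT and 0.0815 in Cacnb3-/- BMDCs. Levels in 24h and in ctrl differed by 0.13 in WT (SE 0.10, adjusted p = 0.478).

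**Figure D3:**
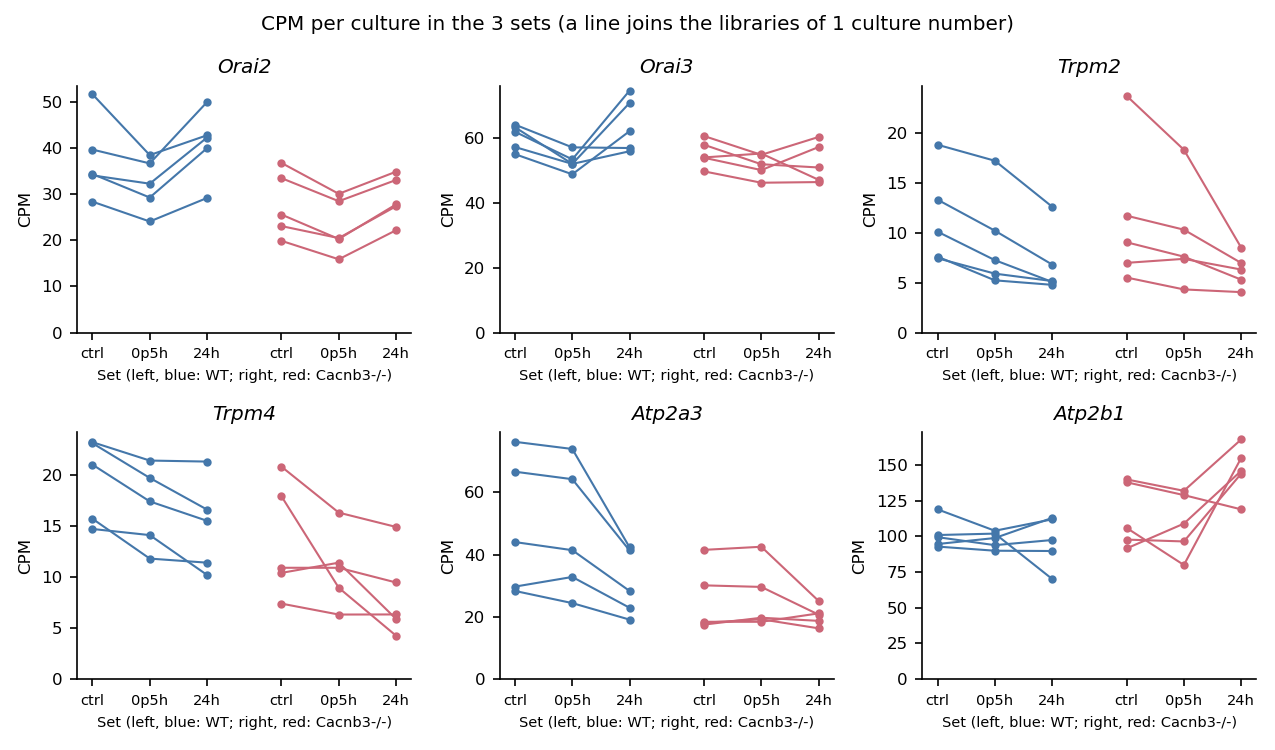
CPM of 6 of the genes in the sets ctrl, 0p5h and 24h, with a line for each of 5 WT cultures (left, blue) and 5 Cacnb3-/- cultures (right, red). Orai2 dips in 0p5h in all 10 cultures, and by culture number Trpm2 is lower in 24h than in ctrl in all 10.

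Orai3, the most abundant channel gene, also dipped in 0p5h. The 5 WT ctrl libraries held 57.2, 64.1, 55, 61.9 and 63.3 CPM, and those of 0p5h 52, 57.1, 48.8, 53.4 and 52 CPM, lower in 5 of 5 cultures. The change passed within WT (log2 change -0.19, SE 0.04, adjusted p = 0.0301) and in the fit of 10 cultures (-0.15, SE 0.04, adjusted p = 0.0133), lower in 9 of 10. The Cacnb3-/- change was -0.11 (SE 0.06, adjusted p = 0.461), and the difference between the genotypes was 0.09 (SE 0.07, adjusted p = 1, blocked). From 0p5h to 24h the WT libraries reached 70.8, 56.9, 62.1, 74.6 and 55.9 CPM, higher in 4 of 5 cultures, at a log2 change of 0.28 (SE 0.09, adjusted p = 0.0726). The Cacnb3-/- change in this step was 0.03 (SE 0.09, adjusted p = 0.835).

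Orai1, which forms the main store-operated channel of lymphocytes, had no fall that passed from ctrl to 0p5h. Its 10-culture change from ctrl to 0p5h was -0.02 (SE 0.06, adjusted p = 0.901), lower in 6 and higher in 4 of 10 cultures. From 0p5h to 24h it fell in Cacnb3-/- BMDCs (log2 change -0.32, SE 0.09, adjusted p = 0.0224), with libraries at 31.9 to 58.3 CPM in 0p5h and at 24.9 to 41.5 CPM in 24h, lower in 5 of 5 cultures. With the GC trend of each library removed this change was -0.02 (adjusted p = 0.868). Orai1 has the highest GC content of the 10 genes, 58.7%. In WT the change was -0.03 (SE 0.10, adjusted p = 0.854).

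The reference promoter windows of Orai2, Orai3 and Trpm2 are shown here, chosen for the regular set changes of these genes. RefSeq promoter windows, 250 bases before to 50 after the start site, were at hand for 8 of the 10 genes, in build GRCm38.p6. Capitals mark matches on either strand to the E-box CACGTG and to GGAAAA, the core bound by NFAT factors, which act downstream of store-operated entry.

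Orai2, minus strand of chr5:136170607-136170906: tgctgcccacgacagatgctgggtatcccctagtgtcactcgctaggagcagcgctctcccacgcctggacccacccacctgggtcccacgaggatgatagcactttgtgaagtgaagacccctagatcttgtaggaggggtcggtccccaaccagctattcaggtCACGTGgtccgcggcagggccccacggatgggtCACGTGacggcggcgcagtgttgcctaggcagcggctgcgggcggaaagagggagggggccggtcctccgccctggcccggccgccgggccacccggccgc

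Orai3, plus strand of chr7:127769565-127769864: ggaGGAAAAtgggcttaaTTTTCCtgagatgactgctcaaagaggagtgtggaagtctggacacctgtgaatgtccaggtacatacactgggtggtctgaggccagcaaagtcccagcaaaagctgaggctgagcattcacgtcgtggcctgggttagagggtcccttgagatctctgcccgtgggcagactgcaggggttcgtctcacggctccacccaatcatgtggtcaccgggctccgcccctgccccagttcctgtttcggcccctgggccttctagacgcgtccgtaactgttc

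Trpm2, minus strand of chr10:77969823-77970122: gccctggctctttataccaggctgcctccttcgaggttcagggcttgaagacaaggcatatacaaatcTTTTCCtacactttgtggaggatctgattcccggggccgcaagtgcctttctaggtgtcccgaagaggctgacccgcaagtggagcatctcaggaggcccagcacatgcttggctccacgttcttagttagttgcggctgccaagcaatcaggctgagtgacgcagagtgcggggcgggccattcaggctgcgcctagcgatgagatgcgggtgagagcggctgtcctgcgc

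The Orai2 window held 2 E-box matches, beginning 84 and 51 bases before the start site, and no GGAAAA. An E-box match was found in 7.15% of all 32817 promoter windows, and otherwise among the 9 windows of the 8 genes only in 1 window of Atp2b1, 8 bases after the start. GGAAAA or its reverse complement TTTTCC was found in 23.3% of all windows, with 2 matches in Orai3 and 1 in Trpm2. The AP-1 sequence TGACTCA, present in 5.2% of all windows on either strand, and the cAMP response element TGACGTCA, present in 1.79%, were in none of the 9 windows. These searched sequences do not overlap each other in the windows shown. A match describes these letters only, and no link between a match and a change in level was tested.

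In the fit of 10 cultures, Trpm2 fell in both steps over the 3 sets. In WT the 5 cultures, in the order given for Orai2, held 13.3, 7.6, 7.44, 18.8 and 10.1 CPM in ctrl, 10.2, 5.23, 5.9, 17.2 and 7.25 CPM in 0p5h and 6.81, 4.78, 5.16, 12.6 and 5.07 CPM in 24h. In Cacnb3-/- BMDCs they held 23.7, 6.98, 5.51, 9.04 and 11.7 CPM in ctrl, 18.3, 7.38, 4.32, 7.6 and 10.3 CPM in 0p5h and 8.51, 6.31, 4.05, 5.3 and 6.97 CPM in 24h. By number, every culture ended lower than it began. The groups overlapped because cultures started at different levels, with p974s856 the highest in WT and p974s843 the highest in Cacnb3-/- ctrl and 0p5h.

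From ctrl to 0p5h, Trpm2 fell by 0.29 on the log2 scale in the fit of 10 cultures (SE 0.06, 0.817-fold, adjusted p = 0.00429), lower in 9 of 10, and by 0.34 in WT alone (SE 0.08, adjusted p = 0.0296). In WT alone this call held only without p974s856 when 1 culture was left out, the Orai3 call held without p974s846 or p974s850, and DESeq2 with a block called 0 of the 10 genes. From 0p5h to 24h Trpm2 fell by 0.43 (SE 0.10, 0.74-fold, adjusted p = 0.00465), lower in 10 of 10 cultures, a pattern shared by 6.12% of genes tested. In WT alone the Trpm2 change from 0p5h to 24h did not pass (-0.38, SE 0.11, adjusted p = 0.0568, blocked). The WT fall of Trpm2 from ctrl to 24h reached 0.74 (SE 0.12, 0.599-fold, adjusted p = 0.00899), and it was lost without p974s846. In Cacnb3-/- BMDCs the Trpm2 change from ctrl to 0p5h did not pass (-0.23, SE 0.10, adjusted p = 0.308, blocked). There Trpm2 fell by 0.50 from 0p5h to 24h (SE 0.15, adjusted p = 0.0312), and with the GC trend removed by 0.35 (adjusted p = 0.101). Between ctrl and 24h, Trpm2 and Trpm4 were lower in 10 of 10 cultures by number, as were 3.67% of genes.

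Trpm4 likewise had its lowest group mean in 24h in both genotypes. In WT it held 21, 14.7, 23.1, 23.2 and 15.7 CPM in ctrl and 15.5, 10.2, 16.6, 21.3 and 11.4 CPM in 24h, and the fall passed with the block (log2 change -0.40, SE 0.10, 0.76-fold, adjusted p = 0.0412), lower in 5 of 5 cultures. It passed only without p974s856 when 1 culture was left out. The steps from ctrl to 0p5h and from 0p5h to 24h did not pass in the fit of 10 cultures, at -0.25 (SE 0.08, adjusted p = 0.0507) and -0.29 (SE 0.10, adjusted p = 0.0572). Both passed in the same cultures by DESeq2 with a block (adjusted p = 0.0448 and 0.0304) and in edgeR with the GC trend removed (0.0246 and 0.0305). In Cacnb3-/- BMDCs culture p974s843 went from 17.9 CPM in ctrl to 8.94 in 0p5h and 4.25 in 24h, while culture p974s865 went from 20.8 to 16.3 and 14.9.

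Atp2a3 fell by 24h in WT. In WT its 5 cultures held 44, 29.7, 76.2, 66.6 and 28.3 CPM in ctrl, 41.4, 32.8, 73.9, 64.2 and 24.4 CPM in 0p5h and 28.3, 22.9, 42.3, 41.3 and 19.1 CPM in 24h. With the block, the WT fall was 0.62 on the log2 scale from ctrl to 24h (SE 0.09, 0.651-fold, adjusted p = 0.0068) and 0.57 from 0p5h (SE 0.08, 0.672-fold, adjusted p = 0.00283), lower in 5 of 5 cultures in both. The change from ctrl to 0p5h in 10 cultures was -0.00 (SE 0.04, adjusted p = 0.982).

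Atp2a3 stood in Cacnb3-/- BMDCs at 18.4, 30.1, 17.5, 18.1 and 41.5 CPM in ctrl and at 21.1, 20.7, 18.7, 16.3 and 25.1 CPM in 24h. Cultures p974s851 and p974s865, the highest in ctrl, were lower in 24h, and the other 3 held between 16.3 and 21.1 CPM there. The change from 0p5h to 24h was -0.29 (SE 0.14, adjusted p = 0.13) in Cacnb3-/- BMDCs, and its difference from WT did not pass (interaction 0.28, SE 0.16, adjusted p = 0.266, blocked). In the fit of 10 cultures it was -0.43 (SE 0.09, adjusted p = 0.00329), lower in 9 of 10.

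Atp2a2, the other SERCA gene, was higher in 0p5h than in ctrl in 5 of 5 WT and 3 of 5 Cacnb3-/- cultures, at a 10-culture change of 0.12 (SE 0.04, adjusted p = 0.0562). It ranged from 50.7 to 76.9 CPM in WT ctrl, from 52.5 to 78.6 in WT 0p5h and from 44.9 to 63.7 in WT 24h. The change from 0p5h to 24h was -0.14 (SE 0.06, adjusted p = 0.0728), lower in 9 of 10 cultures.

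Atp2b1 rose from 0p5h to 24h in Cacnb3-/- BMDCs. Its libraries there held 109, 96.5, 132, 80 and 129 CPM in 0p5h and 146, 144, 168, 155 and 119 CPM in 24h, in the culture order given for Orai2, so that 4 of 5 cultures rose and p974s865 did not. The log2 change was 0.45 (SE 0.13, 1.36-fold, adjusted p = 0.0272, blocked), and with the GC trend also removed 0.32 (SE 0.10, adjusted p = 0.0394). In WT the change was -0.03 (SE 0.10, adjusted p = 0.878), and the difference between genotypes did not pass (0.47, SE 0.18, adjusted p = 0.123, blocked). Leaving out culture p974s843, p974s851 or p974s853 left 0 of the 4 genes called in Cacnb3-/- BMDCs from 0p5h to 24h (Orai1, Orai2, Atp2b1 and Trpm2), whereas 7 of the 10 genes passed without p974s865 and 2, Orai2 and Trpm2, without p974s852. Of all genes, 14.1%, 12.6% and 18% passed in the former fits, 40.7% without p974s865 and 22.3% without p974s852.

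Stim1 and Stim2 passed between no pair of sets in the edgeR fits of all cultures. DESeq2 with a block called Stim1 from 0p5h to 24h in Cacnb3-/- BMDCs (adjusted p = 0.0372) and in the 10 cultures (adjusted p = 0.0397). Stim1 changed by 0.06 from ctrl to 0p5h (SE 0.06, adjusted p = 0.565) and by -0.25 from 0p5h to 24h (SE 0.10, adjusted p = 0.0712) in the fit of 10 cultures. The largest single drop was in Cacnb3-/- culture p974s843, from 19.3 CPM in ctrl to 14.4 in 0p5h and 6.65 in 24h. Stim2 changed by 0.06 (SE 0.05, adjusted p = 0.51) and 0.07 (SE 0.10, adjusted p = 0.656). In culture p974s843 Stim2 rose over the same sets, from 32.2 to 42.1 and 61.7 CPM.

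**Figure D4:**
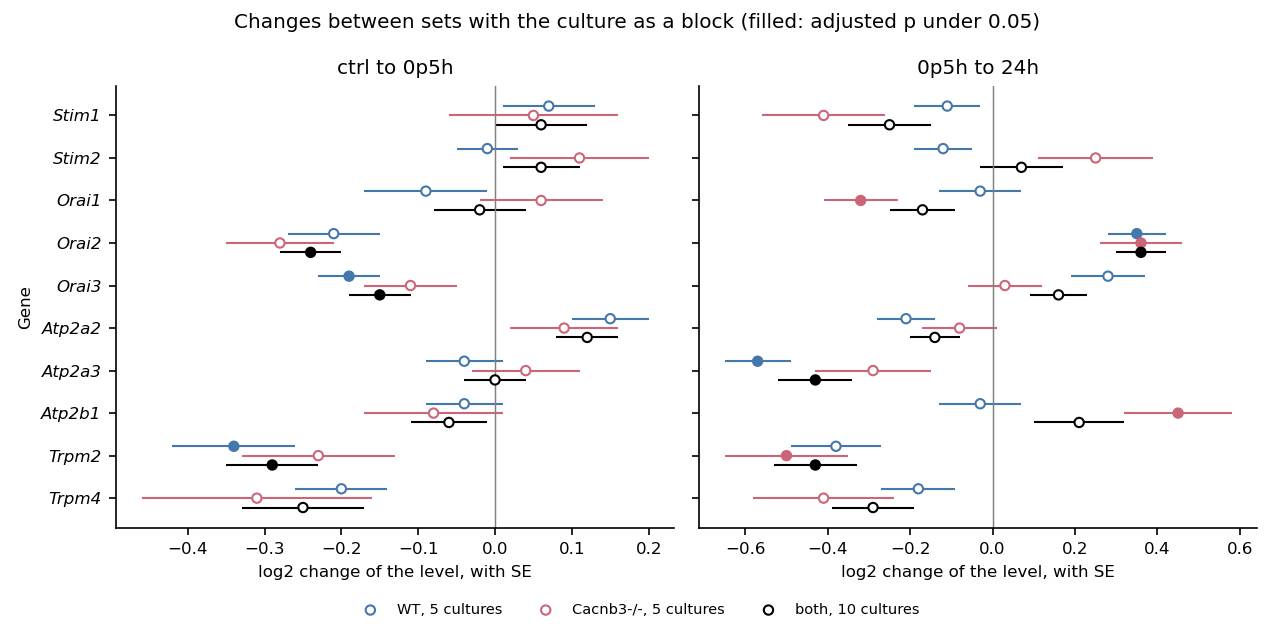
Log2 change of each gene from ctrl to 0p5h and from 0p5h to 24h with its SE, for 5 WT cultures, 5 Cacnb3-/- cultures and all 10, with the culture as a block; filled points passed an adjusted p of 0.05. Orai2 lies at -0.24 and then at 0.36 in the fit of 10 cultures, and Trpm2 lies below 0 in both panels.

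Other values moved with the sets. The summed CPM of the 7 macrophage markers had a median of 1453 in WT ctrl, 1919 in 0p5h and 992 in 24h, and of 1749, 2472 and 1187 in Cacnb3-/- BMDCs, with all 7 above a mean of 1 CPM in every group. Single WT libraries ranged from 1168 to 2143, from 1549 to 3253 and from 754 to 1827, and Cacnb3-/- libraries from 682 to 2842, from 738 to 4159 and from 575 to 1662. The summed dendritic cell markers had a median of 30481, 34559 and 30851 in WT and of 23476, 29033 and 18127 in Cacnb3-/- BMDCs, within 26732 to 39560, 27617 to 39699 and 20942 to 36041 in WT and 17561 to 31540, 21251 to 37263 and 15989 to 27373 in Cacnb3-/- BMDCs. The granulocyte sum had medians between 244 and 412 CPM in the 6 groups. The part of cell composition in the changes of Trpm2, Trpm4 and Atp2a3 was not tested.

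Between genotypes, 4 of the 10 genes, Stim1, Orai2, Atp2a3 and Trpm4, had lower estimates in all 3 sets of libraries labelled Cacnb3-/-, under each scaling tried. Atp2b1 likewise had higher ones. Orai3 was lower in all 3 sets of the reported fits (-0.11 in ctrl, -0.01 in 0p5h and -0.28 in 24h). With the GC trend removed, it stood at 0.05 in 0p5h and 0.01 in 24h. None passed in these fits. The clearest separation was Atp2b1 in 24h, where the 5 libraries labelled Cacnb3-/- (119 to 168 CPM) all lay above the 5 WT libraries (70.2 to 113 CPM), at a log2 difference of 0.61 (SE 0.15, 1.53-fold, adjusted p = 0.0515). It was the only 1 of the 10 genes without overlap in 24h, where 6.52% of genes tested did not overlap. In ctrl and 0p5h all 10 genes overlapped, against 1.91% and 2.05% of genes that did not.

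Atp2a3 had the largest estimated difference in ctrl and 0p5h, at -0.94 (SE 0.33, 0.522-fold, adjusted p = 0.249) and -0.86 (SE 0.32, 0.552-fold, adjusted p = 0.262). In 24h it was -0.58 (SE 0.22, adjusted p = 0.0839). In ctrl and 0p5h, 3 of the 5 Cacnb3-/- cultures, p974s843, p974s852 and p974s853, lay below every WT library, and p974s865, at 41.5 CPM in ctrl, lay inside the WT range. In 24h p974s843, at 21.1 CPM, was above the lowest WT library, at 19.1.

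Stim1 held 22.9 to 31.3 CPM in WT ctrl and 11.2 to 29.4 CPM in Cacnb3-/- ctrl, and 20.8 to 33.5 against 6.65 to 27 CPM in 24h, where the difference was -0.72 (SE 0.33, adjusted p = 0.134). In p974s865 it was 29.4, 32.7 and 27 CPM over the 3 sets, within the WT range each time except 0p5h, where it exceeded it. Trpm4 differed by -0.84 in 24h (SE 0.32, 0.56-fold, adjusted p = 0.0794), with 10.2 to 21.3 CPM in WT and 4.25 to 14.9 CPM in Cacnb3-/- BMDCs, of which p974s865 was again the highest. Without p974s865, 6 of the 10 genes passed in 24h (Stim1, Stim2, Orai2, Atp2a3, Atp2b1 and Trpm4), as did 35.3% of all genes. Without WT culture p974s864, Atp2a3 and Atp2b1 passed, as did 18.7% of all genes. For the sums, Stim1 passed without p974s865 and Atp2a3 without p974s864, where 5.23% and 7.03% of all genes did.

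Stim2 ran the other way from Stim1 in 24h, with 29.8 to 42.8 CPM in WT and 34 to 61.7 CPM in Cacnb3-/- BMDCs (difference 0.52, SE 0.17, adjusted p = 0.0561). In ctrl the difference was -0.00 (SE 0.11, adjusted p = 0.999). Orai2 was lower by similar amounts in each set, at -0.42 in ctrl (SE 0.20, adjusted p = 0.313), -0.46 in 0p5h (SE 0.19, adjusted p = 0.277) and -0.47 in 24h (SE 0.16, adjusted p = 0.0653). Orai3 differed by -0.28 in 24h (SE 0.13, adjusted p = 0.134). Orai1, Atp2a2 and Trpm2 differed by -0.00 (SE 0.17), 0.06 (SE 0.15) and -0.13 (SE 0.30) in 24h, with adjusted p of 0.996, 0.804 and 0.776. By DESeq2, 4 of the 10 genes passed in 24h, Stim2, Orai2, Atp2b1 and Trpm4, as did 22.5% of all genes, and 0 in ctrl, 0p5h and the sums.

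Library properties moved with genotype, and not only in 24h. Mitochondrial genes took 1.07% to 4.49% of counts in WT ctrl and 2.61% to 10.4% in Cacnb3-/- ctrl libraries. For 0p5h these ranges were 1.13% to 4.02% and 2.16% to 10.5%. Mitochondrial genes took 0.706% to 5.61% of counts in WT 24h and 3.21% to 16.5% in Cacnb3-/- 24h libraries. The fitted trend of log2 level with GC content, between genes of 41.6% and 57.1% GC, was -0.586 to -0.857 in 4 of the Cacnb3-/- 24h libraries and 0.105 in p974s865, against 0.0468 to 0.89 in WT. In Cacnb3-/- culture p974s852 this trend was also -0.705 in ctrl and -0.615 in 0p5h. The other Cacnb3-/- libraries of ctrl and 0p5h lay between -0.0926 and 0.312. With this trend removed, the 24h differences became -0.15 for Atp2a3, -0.13 for Orai2, -0.42 for Stim1, 0.48 for Orai1 and 0.01 for Orai3, and those of Atp2b1, Stim2 and Trpm4 became 0.42, 0.43 and -0.60. None of the 10 genes passed, with adjusted p of 0.13 for Atp2b1 and Orai1. Atp2b1 and Stim2 have the lowest GC contents of the 10, 45.7% and 47.4%.

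**Figure D5:**
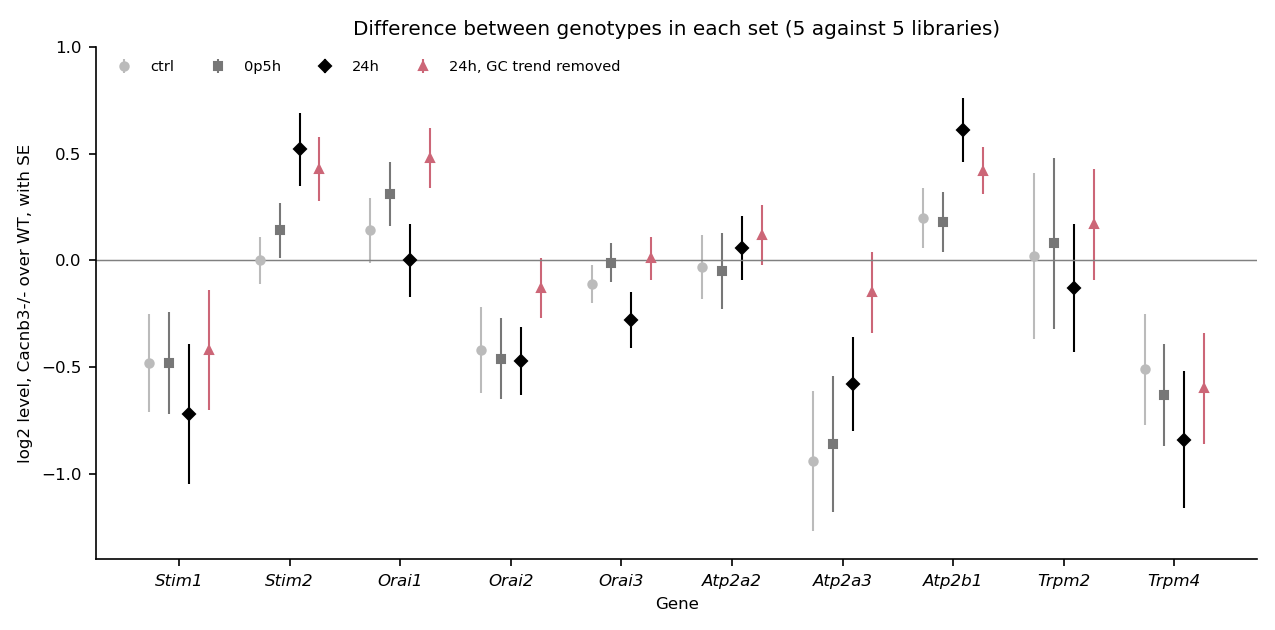
Log2 difference of each gene between 5 Cacnb3-/- and 5 WT libraries with its SE in ctrl, 0p5h and 24h, and in 24h after the GC trend of each library was removed. Atp2b1 lies at 0.61 and Trpm4 at -0.84 in 24h, and Atp2a3 moves from -0.58 to -0.15 with the GC trend removed.

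No difference between genotypes in the change between sets passed for any of the 10 genes. The largest interaction estimates were for Stim2 from ctrl to 24h (0.53, SE 0.20, adjusted p = 0.753) and for Atp2b1 from 0p5h to 24h (0.44, SE 0.20, adjusted p = 0.68), and these were the 2 at an unadjusted p under 0.05. With the culture as a block, 0 of the 10 genes passed for the interactions from ctrl to 0p5h and from 0p5h to 24h either, and 0% and 0.00745% of all genes did. The SEs of the 10 genes were then 0.07 to 0.17 and 0.11 to 0.20, and Atp2b1 from 0p5h to 24h stood at 0.47 (SE 0.18, adjusted p = 0.123).

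Other genes of the calcium system were examined as fixed lists. In the comparisons as designed, 0 genes of the 7 lists passed in any comparison. With the block and 10 cultures, 4 of 10 genes for ER calcium-binding proteins passed upward from ctrl to 0p5h and 0 downward, at a list median of 0.12 against 0.00 for all genes tested, of which 14.3% passed in either direction. In the same step 1 of 7 genes of mitochondrial calcium uptake passed upward, 1 of 7 tested other TRP channels passed downward, and 0 of 10 tested SOCE regulators, 0 of 5 other pumps and subunits and 0 of 2 sodium-calcium exchangers passed. From 0p5h to 24h, 0 of 10 tested SOCE regulators passed upward and 1 downward, and 1 of 5 tested other calcium pumps and subunits passed in each direction, where 25.3% of all genes passed. In that step 0 of 10 ER calcium-binding proteins passed, 1 of 7 genes of mitochondrial uptake and 1 of 2 exchangers passed downward, and 1 of 8 other TRP channels passed upward.

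Some genes of these lists were singled out after their values had been seen, in the fit of 10 cultures. Rcan1, a calcineurin regulator whose transcript is induced by NFAT, rose 1.37-fold from ctrl to 0p5h (log2 change 0.45, SE 0.10, adjusted p = 0.00536). Calr, the ER calcium buffer calreticulin, rose 1.09-fold (0.12, SE 0.03, adjusted p = 0.0219). From 0p5h to 24h, Saraf, which encodes an inhibitor of store-operated entry, fell to 0.86-fold (-0.22, SE 0.05, adjusted p = 0.00897). Bsg, which encodes basigin, a partner subunit of PMCA pumps, fell to 0.728-fold (-0.46, SE 0.07, adjusted p = 0.000367), and Atp2b2, a further PMCA gene expressed at a median of only 0.205 RPKM, rose 1.55-fold (0.64, SE 0.12, adjusted p = 0.00197).

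Levels of some list genes, also picked after their values had been seen, set the 10 genes in context. Saraf had a median of 42.2 RPKM, above every Stim and Orai gene, and Stimate, a further regulator of STIM proteins, of 9.32 RPKM. Among other pumps, the secretory pathway pump gene Atp2c1 had a median of 5.55 RPKM and Atp2b4 of 2.02 RPKM, against 14.4 for Atp2b1. The other TRP channels were led by Trpv2 at 19.8 RPKM and Mcoln1 at 11.5 RPKM, both above Trpm4 and Trpm2 by median. The plasma membrane sodium-calcium exchanger gene Slc8a1 had a median of 1.63 RPKM and its mitochondrial relative Slc8b1 of 12.9 RPKM.

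Trpm4, Atp2a3 and Stim1 had the widest spans between the lowest and the highest group mean, 1.37, 1.16 and 1.05 on the log2 CPM scale, and for these the genes with the most similar course over 30 libraries were looked up among 11921 genes. They were Dedd2, Gse1 and Flywch1 for Trpm4 (Pearson's r = 0.965, 0.961 and 0.961), Col5a1, Arfgap3 and Dglucy for Atp2a3 (0.939, 0.935 and 0.935) and Hadha, Slc8a1 and Atp6v0a2 for Stim1 (0.976, 0.973 and 0.967). These coefficients describe libraries that share cultures, depth and GC trend, and carry no test.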

How the data were processed

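BMDC mRNA was measured in 30 libraries of 10 cultures. The authors aligned reads with STAR 2.4 and counted them per gene with featureCounts 1.5.1; the deposited table holds raw read counts and an exon length for 43629 Ensembl genes. Its header names Ensembl annotation of GRCm38, whereas the methods name GRCm39. No strand option was set, so strands were not told apart in counting. Exons of Orai1 and Atp2a2 overlap a gene on the opposite strand over 7 and 11 bases. The study called genes with DESeq2 at a 2-fold minimum. Symbols came from GENCODE, which named 38984 genes (89.4%).

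Libraries were grouped by genotype field and name ending. Counts were tested across all genes with edgeR 4.0.16 in R 4.3.3 (TMM, filterByExpr, quasi-likelihood test, Benjamini-Hochberg adjustment, passed = adjusted p under 0.05), with each comparison fitted on its own groups; DESeq2 1.42.0 was an alternative. All 10 genes passed the low-count filter in every comparison. CPM used TMM-scaled totals. The GC trend of a library was a lowess fit of its log2 deviations on exon GC content, a value that 89.5% of genes had. The fits were also run on simulated counts with known changes. The spread of those counts was set by hand and not taken from these cultures. That run therefore does not show how the fits perform on these data.

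Same-numbered libraries of a genotype deviated together: over 13755 genes, 29 of 30 same-number pairs correlated above 0.1 (median r 0.581), against 34 of 120 pairs of other numbers (median -0.208). The exception was Cacnb3-/- p974s843, ctrl with 24h (r = 0.0742). Culture number was therefore taken as pairing in all comparisons of sets but Cacnb3-/- ctrl to 24h. Blocked fits that include that comparison stand only in the closing section. Counts and courses of Cacnb3-/- cultures from ctrl to 24h, also within all 10 cultures, follow the number alone. Replicates of a group differed beyond sampling noise, with a chi-square per degree of freedom of at least 23.7 over 60 pairs. Named genes were the 10 genes, up to 3 genes of a fixed list passing as designed, and the 3 most similar genes for the 3 members with the widest spans. As no list gene passed as designed, those named were picked after their values had been seen. The 10 genes and the lists were chosen with earlier results of these data known. The fits of 10 cultures, those with the sequencing lane as a covariate and those leaving a culture out of a blocked fit were chosen after seeing the data. The result of 1 list gene, and the count of its list, are not reported here.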

Additional observations from a re-analysis of the deposited data

Results flagged for a closer look

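Among the 60 groups of 5 libraries (10 genes in 6 groups), 2 held a library far from its group by Dixon's criterion on log2 CPM, where chance alone flags about 1 in 20 groups. Orai1 in WT ctrl stood at 45.3 CPM in culture p974s850, with the next library at 37.7 and the lowest at 35.8 CPM. Atp2a2 in WT 24h stood at 44.9 CPM in culture p974s846, with the next library at 57.6 and the highest at 63.7 CPM. No gene moved one way in all cultures of 1 genotype and the opposite way in all cultures of the other.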

How the results depend on the processing

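Of the counts of genes passing as designed, those between genotypes in 24h depended on the processing: 4 by DESeq2, 1 without a low-count filter, 4 with all 30 libraries in 1 fit, and 0 to 6 with each replicate left out, against 0 in the reported fit. The summed libraries gave 0 to 1 with a culture left out. The replicate block gave 2 genes in WT from ctrl to 0p5h (3 with the GC trend also removed), 3 in WT from ctrl to 24h (3 by DESeq2 and 3 with the GC trend removed), 2 in WT from 0p5h to 24h (2 by DESeq2, 4 with the GC trend removed) and 4 in Cacnb3-/- from 0p5h to 24h (5 by DESeq2, 2 with the GC trend removed); in Cacnb3-/- from ctrl to 24h, where numbers were not taken as pairing, it gave 1, Trpm2 (-0.73, adjusted p = 0.0401), 2 by DESeq2 and 0 with the GC trend removed. DESeq2 with a block gave 0 in WT from ctrl to 0p5h. In blocked fits with a culture left out, the count was 0 to 1 in WT from ctrl to 0p5h, 1 to 3 from ctrl to 24h and 1 to 3 from 0p5h to 24h, 0 to 1 in Cacnb3-/- from ctrl to 0p5h and 0 to 7 from 0p5h to 24h. Fits of 10 cultures gave 3 genes each; without the block they gave 0, with the GC trend removed 5 from ctrl to 0p5h and 5 from 0p5h to 24h, by DESeq2 5 and 6 (both added Atp2a2 and Trpm4 in the first step; Orai3 and Trpm4, and Atp2a2, Stim1 and Trpm4, in the second), and with a culture left out 3 to 5 (5 without p974s843 or p974s853) and 3 to 7 (7 without p974s856). From ctrl to 24h they called Atp2a3, Trpm2 and Trpm4, as 14.1% of all genes, but not Atp2a3 with the GC trend removed (adjusted p = 0.108), and 3 to 4 genes with a culture left out. The block changed no other call, no count changed with the lane as a covariate, and the causes of these differences were not tested. With each replicate left out, Trpm2 between genotypes in ctrl went from 0.02 to -0.43 without p974s843. Of 2763 single-gene values under an alternative, 84 newly passed and 43 no longer passed; 95 had the other sign than the reported value, all of them without a call in either fit. Depth limited Trpm4 and Trpm2 most, with as few as 32 and 46 counts in a library.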
